A study of Danio rerio with 7 samples.

Results

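The genes that carry a cell through mitosis were measured in PAC2 cells, a permanent line derived from zebrafish embryos, as its cultures passed from exponential into stationary growth. Of 50 gene names listed for mitosis and the spindle, 48 were matched to the count matrix and 2, *cenpa* and *incenp*, were not analysed here. The name *prc1b* matched 2 identifiers, both called *PRC1* in the gene name table, and both were kept, which gave 49 genes among the 17570 measured. Of the matched names, 45 were identical to a symbol of the table, while *birc5a* and *kif4* were matched as *BIRC5* and *KIF4A*.

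Poly-A RNA was sequenced from untreated cells on day 14 after seeding, in stationary phase (SP, replicates 1, 2 and 4), and on day 8, in exponential phase (PP, replicates 1 to 4). All cultures were kept in 6-well plates in L-15 medium with 5% fetal calf serum. Each replicate was a separate passage of the line, started on its own day, and replicate 3 of day 14 was lost while libraries were prepared. Medium was exchanged once, on day 7, so age of the culture and time since fresh medium cannot be told apart between both days. Values are given as CPM, counts relative to the scaled library size. No correction for gene length was made here, and whether the deposited values hold one was not checked. CPM values are therefore compared mainly between libraries, and levels of different genes only roughly.

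Mitosis starts when cyclin-dependent kinase 1, bound to cyclin A or B, switches on a cascade of mitotic kinases. Condensins and topoisomerase II then compact the chromosomes, kinetochores form on the centromeres, and motor proteins build a bipolar spindle that the kinetochores attach to. The spindle checkpoint restrains the anaphase-promoting complex until all chromosomes are attached, after which separase splits sister chromatids and the cytokinesis machinery divides the cell. In vertebrate cells most of these transcripts are made late in the cycle and are scarce in cells that have left it. The roles given below are known mainly from human cells, mouse and yeast.

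Libraries held 11252559 to 33414743 estimated counts, and 1 count corresponded to 0.0300 to 0.0773 CPM. No listed gene had fewer than 30 counts in any library. Between any pair of libraries of the same day the chi-square per degree of freedom was 14.0 or more, where sampling noise alone gives about 1. No library was thus a copy of another of the same day, and pairs across days were not compared. Of the markers checked, 7 of 8 fibroblast names were found and summed to 5320 to 7029 CPM on day 14 and 2944 to 5565 CPM on day 8, and 4 of 6 epithelial names summed to 2860 to 2993 and 2573 to 2992 CPM. Only 2 of 4 endothelial, 1 of 4 muscle and 2 of 4 neural names were found. Each of these sets summed to at most 3.72 CPM on day 14 and at most 8.64 CPM on day 8, and 0 of 7 blood and immune names were found. Single markers moved with the growth phase although the epithelial sum, most of it *krt8*, overlapped between days. Of 4 epithelial identifiers 2 were called lower and 0 higher, against 13.3% and 12.0% of all genes. *cdh1* (E-cadherin) had 28.4, 20.6 and 22.3 CPM on day 14 against 62.0, 61.6, 51.4 and 54.1 CPM on day 8 (log2 difference -1.26, edgeR adjusted p = 0.000340). *krt4* had a log2 difference of -0.59 (edgeR adjusted p = 0.0122). Not called were *krt8* (log2 difference 0.15) and *krt5* (0.74), the latter at only 0.464 to 2.23 CPM. Most of the fibroblast sum came from *col1a1a*, *col1a2* and *col5a1*, of which only *col1a2* was called. Of 8 fibroblast identifiers 5 were called higher and 1 lower, against 12.0% and 13.3% of all genes. Among those higher was *vim*, at only 0.213 to 0.874 CPM over all libraries. For *fn1a*, ENSDARG00000006526 was called higher (log2 difference 1.42) and the more abundant ENSDARG00000019815 lower (-0.89). The endothelial *kdrl* was called lower (log2 difference -1.47). The part of these markers in the results below was not tested.

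All 49 genes had lower values on day 14, and 48 were called lower (edgeR quasi-likelihood test, Benjamini-Hochberg adjusted p below 0.05 over all genes), against 13.3% of all genes called lower. No listed gene was called higher, against 12.0% of all genes called higher. At an unadjusted p below 0.05 the counts were 49 lower and 0 higher, for which the share of all genes was not counted. DESeq2 called 49 lower and 0 higher, against 2712 lower and 2336 higher among all 17570 genes. For 48 genes every day 14 library lay below every day 8 library, as was the case for 17.7% of all genes. The only gene not called was *pttg1*.

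The median log2 difference of the 49 genes, day 14 minus day 8, was -1.21, which left 43.4% of the day 8 level, while the median over all genes was 0.0032. The values extended from -1.65 for *mad2l1* to -0.61 for *spc25*, 41 genes fell by more than 2-fold and 1 by more than 3-fold. Among all genes ordered by log2 difference, 40 of the 49 stood in the lowest 5% and 45 in the lowest 10%. In bulk RNA, fewer dividing cells and less RNA per dividing cell cannot be told apart.

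**Figure D1:**
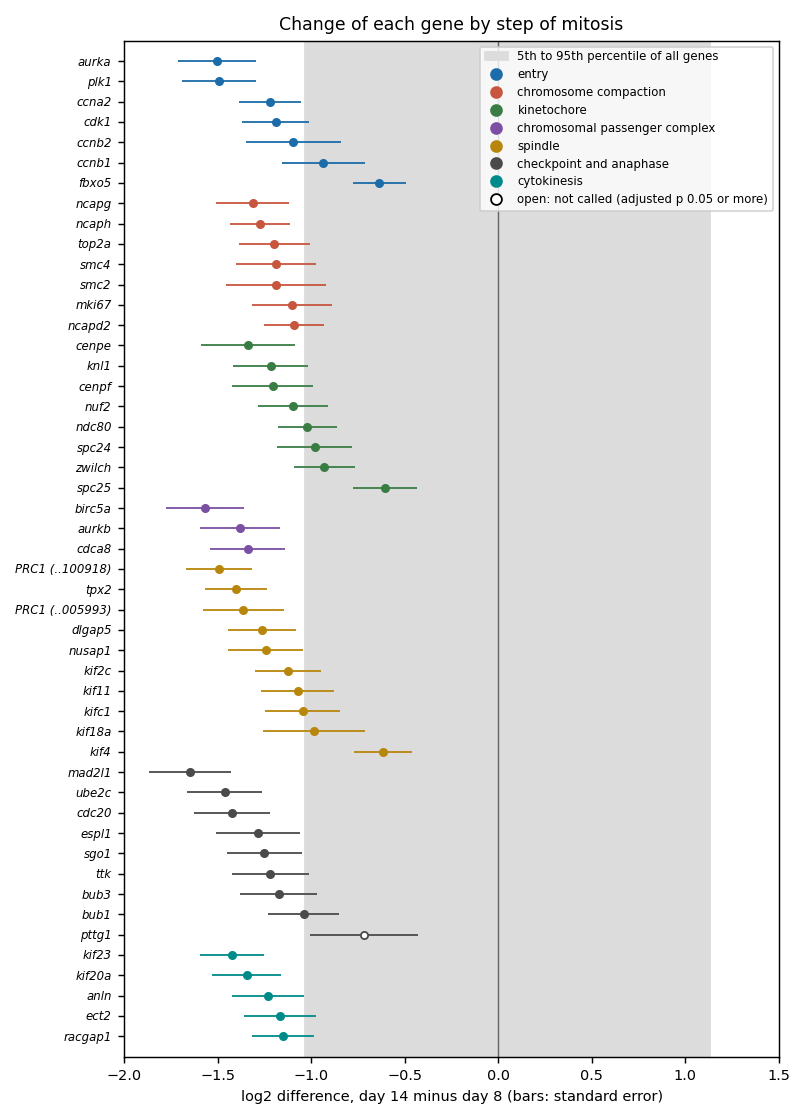
Log2 difference (day 14 minus day 8, x axis) of each of the 49 genes, grouped by step of mitosis, with bars for the standard error and an open circle for the gene not called. All points lie below 0, between -1.65 (*mad2l1*) and -0.61 (*spc25*), and 40 lie outside the shaded range that holds all genes between the 5th and the 95th percentile (-1.03 to 1.13).

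Summed over the 49 genes, the transcripts took 2223, 1684 and 1733 CPM in day 14 replicates 1, 2 and 4, against 3830, 4314, 4192 and 4932 CPM in day 8 replicates 1 to 4. As a share of the scaled library this was 0.168% to 0.222% on day 14 and 0.383% to 0.493% on day 8. The sums of both days did not overlap, and the highest of day 14 and the lowest of day 8 were both from replicate 1.

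Day 14 replicate 1 stood apart from the other stationary libraries. It was the highest of the 3 for 46 of 49 genes, with a median of -0.85 (log2) relative to the day 8 mean, against -1.35 in replicate 2 and -1.28 in replicate 4. Without it the median log2 difference of the genes was -1.41 and 48 were called lower, against 1932 of all 17570 genes. Compared within the same replicate number, the median difference was -0.79 in replicate 1, -1.38 in replicate 2 and -1.45 in replicate 4. Replicate 1 joined the library with most counts (day 14, 33414743) to the library with fewest (day 8, 11252559). The part of depth in its smaller difference was not tested. In all 3 pairs 48 of 49 genes were lower on day 14, but the share of all genes with that pattern was not counted.

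The day 8 libraries differed in which mitosis genes they held most of. Replicate 4 was the highest library for 32 genes, while replicate 1 was the lowest for 28 and replicate 3 for 19. Between the last-named pair, the log2 ratio of replicate 1 to replicate 3 ranged from -1.25 for *pttg1* to 0.75 for *cenpf*, with 20 genes higher and 29 lower in replicate 1. Higher in replicate 1 were 6 of 7 genes of chromosome compaction and 4 of 5 of cytokinesis, but 1 of 7 entry genes and 0 of 3 of the passenger complex. In between were the spindle (4 of 10), the kinetochore (3 of 8) and the checkpoint and anaphase (2 of 9). Within the kinetochore the log2 ratio ran from -0.86 (*spc24*) to 0.75 (*cenpf*). Within the checkpoint and anaphase it ran from -1.25 (*pttg1*) to 0.43 (*espl1*). Over all genes this pair had the largest chi-square per degree of freedom of any same-day pair (76.2). Genes outside the list also differed between replicates 1 and 3, such as *top2b* (112 against 61.5 CPM) and *anapc16* (9.97 against 28.2 CPM). The share of all genes higher in replicate 1 was not counted. Whether the difference belongs to the steps or goes with transcript length was not tested. The coefficient of variation over the day 8 libraries had a median of 17.2% and reached from 4.80% for *fbxo5* to 37.8% for *pttg1*.

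**Figure D2:**
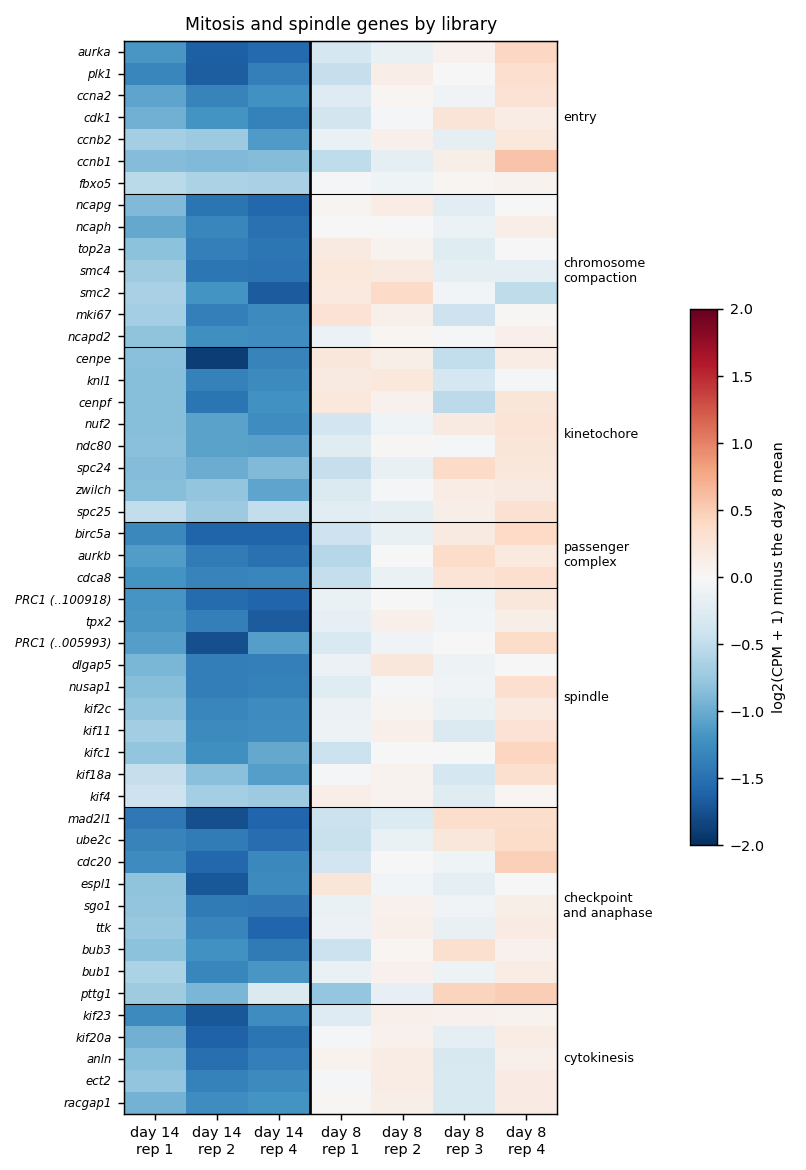
Log2(CPM + 1) of the 49 genes (rows, by step of mitosis) in each library minus the gene's day 8 mean, with the 3 day 14 libraries left of the line and the 4 day 8 libraries right of it. Day 14 replicate 1 is paler than replicates 2 and 4, and *pttg1* in day 14 replicate 4 is the palest day 14 cell.

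By step, the median log2 difference was -1.38 for the chromosomal passenger complex (3 genes), -1.25 for the checkpoint and anaphase (9 genes), -1.23 for cytokinesis (5 genes), -1.19 for entry (7 genes), -1.19 for chromosome compaction (7 genes), -1.18 for the spindle (10 genes) and -1.06 for the kinetochore (8 genes). The place of the passenger complex at the head of the order did not hold in every alternative. With the replicate as a block its median was -1.226, behind cytokinesis (-1.36), the checkpoint and anaphase (-1.31), chromosome compaction (-1.29) and the spindle (-1.231). Without day 14 replicate 1 it was -1.50, against -1.51 for the checkpoint and anaphase. Without day 8 replicate 3 it was -1.245, behind cytokinesis (-1.32), the checkpoint and anaphase (-1.27) and chromosome compaction (-1.246). The kinetochore had the smallest median also with the replicate as a block (-1.02) and without any 1 library. The steps overlapped widely, and the gap between the step medians, from -1.38 to -1.06, was smaller than the spread within entry, kinetochore, spindle or checkpoint genes. These medians are descriptions and were not tested against each other.

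Of the entry genes, *aurka* and *plk1* had the largest falls. *aurka* (ENSDARG00000012485), the kinase of centrosomes and spindle poles, had 26.8, 19.1 and 20.4 CPM in day 14 replicates 1, 2 and 4, against 47.8, 55.5, 65.6 and 82.6 CPM in day 8 replicates 1 to 4. Its log2 difference was -1.51 ± 0.21 (standard error, edgeR adjusted p = 0.000479). *plk1* (ENSDARG00000058471), the polo-like kinase that drives entry and spindle assembly, had 32.5, 25.5 and 31.2 CPM on day 14, against 59.6, 89.7, 81.7 and 104 CPM on day 8. In both genes the lowest day 8 library, replicate 1, was still above all day 14 libraries.

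*cdk1* (ENSDARG00000087554), the kinase at the head of the cascade, had 99.4, 84.4 and 76.2 CPM on day 14 and 151, 190.2, 234 and 216 CPM on day 8, a log2 difference of -1.19 ± 0.18 (edgeR adjusted p = 0.000761). Its partner *ccnb1* (ENSDARG00000051923), cyclin B1, was nearly level on day 14 with 139.6, 137 and 138 CPM, against 178, 226, 275 and 378 CPM on day 8. The day 14 values of *ccnb1* lay within a span of 3 CPM while those of day 8 differed by more than 2-fold, and its log2 difference was -0.94 ± 0.22 (edgeR adjusted p = 0.00940). The ratio of *ccnb1* to *cdk1* within a library was 1.40, 1.62 and 1.81 on day 14 and 1.18, 1.19, 1.18 and 1.75 on day 8, and these ranges overlapped.

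*ccna2*, cyclin A2, fell by 1.22 on the log2 scale. The second cyclin B gene, *ccnb2*, was among the genes with fewest counts, with 1.60 to 2.55 CPM on day 14 and 4.02 to 5.59 CPM on day 8 (log2 difference -1.096 ± 0.25). The smallest fall of the step was that of *fbxo5* (ENSDARG00000039020), or Emi1, an inhibitor of the anaphase-promoting complex. It had 17.5, 16.5 and 16.2 CPM on day 14 and 25.5, 24.6, 26.7 and 27.4 CPM on day 8, a log2 difference of -0.64 ± 0.14 (edgeR adjusted p = 0.00638). Its replicates lay closer together than those of any other listed gene on day 8.

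**Figure D3:**
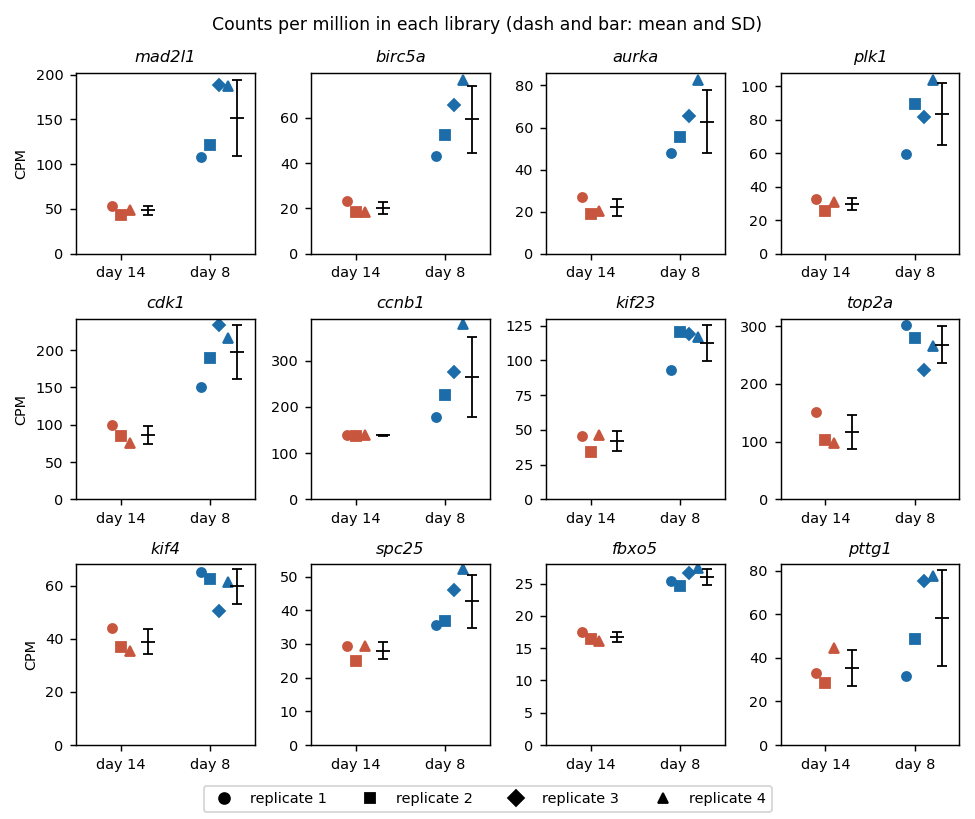
CPM in each library for 12 of the genes, day 14 in red on the left and day 8 in blue on the right of each panel, with symbols for the replicate number and the mean and SD beside the points. In 11 panels the day 14 points lie below all day 8 points, and in *pttg1* day 14 replicates 1 and 4 lie above the lowest day 8 point (31.6 CPM).

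Chromosome compaction changed as a block, with all 7 genes called lower and values between -1.31 and -1.09. The 5 condensin I genes spanned 0.22 log2 units. Among its non-SMC subunits *ncapg* fell by 1.31, *ncaph* by 1.27 and *ncapd2* by 1.09, and the ATPase subunits *smc4* and *smc2*, which also serve condensin II, had log2 differences of -1.19 and -1.19. *top2a* (ENSDARG00000024488), the topoisomerase that untangles sister chromatids, had 150.8, 102 and 97.0 CPM on day 14, against 302, 279, 225 and 266 CPM on day 8 (log2 difference -1.20 ± 0.19, edgeR adjusted p = 0.000947). *mki67*, which coats mitotic chromosomes and is a common marker of dividing cells, had 141, 87.4 and 94.1 CPM on day 14 and 278, 244, 171 and 233 CPM on day 8. For *top2a* and *mki67* replicate 1 was the highest library of each day, whereas on day 8 it was the lowest for 5 of 7 entry genes.

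At the kinetochore all 8 genes were called lower. The largest fall was that of *cenpe* (ENSDARG00000063385), the motor that carries chromosomes to the spindle equator, with 41.6, 19.6 and 29.1 CPM on day 14 and 88.2, 81.6, 52.9 and 83.5 CPM on day 8 (log2 difference -1.34 ± 0.25). *knl1*, the scaffold that recruits checkpoint kinases, fell by 1.22, and *cenpf*, a protein of the outer kinetochore, by 1.21. *zwilch*, a subunit of the complex that brings dynein and checkpoint proteins to kinetochores, fell by 0.93.

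The Ndc80 complex, which grips microtubules, was less even than condensin, over a span of 0.49 log2 units. *nuf2* and *ndc80*, its microtubule-binding arm, fell by 1.098 and 1.02, and of the other two subunits *spc24* fell by 0.98. *spc25* (ENSDARG00000078433) had the smallest change of all 49 genes, with 29.5, 25.1 and 29.5 CPM on day 14 and 35.7, 36.8, 45.9 and 52.2 CPM on day 8. Its groups did not overlap and its log2 difference was -0.61 ± 0.17 (edgeR adjusted p = 0.0222), but the call was lost without day 14 replicate 2 (adjusted p = 0.105), day 14 replicate 4 (0.0586) or day 8 replicate 4 (0.0636).

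The chromosomal passenger complex corrects faulty attachments and later marks the division plane, and 3 of its 4 listed subunits were measured. *birc5a* (ENSDARG00000075621), or survivin, had 23.1, 18.5 and 18.5 CPM on day 14, against 43.1, 52.2, 65.7 and 76.7 CPM on day 8. Its log2 difference of -1.57 ± 0.21 (edgeR adjusted p = 0.000362) was second in size to that of *mad2l1* among the listed genes. *aurkb*, the kinase of the complex, fell by 1.38 and *cdca8*, or borealin, by 1.34. In all 3 genes day 8 replicate 1 was the lowest exponential library and lay above all stationary ones.

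The spindle genes ranged widely. The protein PRC1 bundles microtubules in the midzone, and the genes ENSDARG00000100918 and ENSDARG00000005993 fell by 1.49 and 1.36. Kallisto may divide reads between such similar copies, so their separate values are uncertain. *tpx2*, which activates Aurora A on the spindle, fell by 1.40, *dlgap5*, a stabiliser of spindle fibres, by 1.26 and *nusap1*, a microtubule-bundling protein, by 1.24.

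Among the motors of the spindle, the depolymerase *kif2c* fell by 1.13, *kif11*, which pushes the poles apart, by 1.07, and the minus-end motor *kifc1* by 1.05. *kif18a*, which limits chromosome oscillations, had 3.75, 2.62 and 2.02 CPM on day 14 and 5.33, 5.84, 4.08 and 7.12 CPM on day 8 (log2 difference -0.99 ± 0.27, edgeR adjusted p = 0.0189). The gap between the groups was narrow, 3.75 to 4.08 CPM, and the call was lost without day 14 replicate 2 (adjusted p = 0.0736), day 14 replicate 4 (0.0912) or day 8 replicate 4 (0.0580). The chromosome-arm motor *kif4* (ENSDARG00000005462) had 44.3, 37.0 and 35.5 CPM on day 14 and 65.3, 62.5, 50.3 and 61.3 CPM on day 8 (log2 difference -0.62 ± 0.16, edgeR adjusted p = 0.0120), and was not called without day 14 replicate 2 (adjusted p = 0.0628) or 4 (0.0635).

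The checkpoint and anaphase genes held both the largest fall and the gene not called. *mad2l1* (ENSDARG00000004713) encodes Mad2, the checkpoint protein that captures Cdc20. It had 53.7, 42.9 and 48.4 CPM on day 14, against 108, 122, 188 and 187 CPM on day 8, a log2 difference of -1.65 ± 0.22 (edgeR adjusted p = 0.000363). Its ratio to *spc25* within a library, which no scaling can alter, was 1.82, 1.71 and 1.64 on day 14 and 3.03, 3.31, 4.10 and 3.59 on day 8. The ratios did not overlap, but the 2 genes were chosen as the ends of the range. That choice favours such a gap, and the pair was not tested.

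Of the partners of the anaphase-promoting complex, *ube2c*, which hands it ubiquitin, fell by 1.46, and *cdc20*, its mitotic activator, by 1.42. The cohesin-cleaving protease separase, *espl1*, fell by 1.28 and *sgo1*, which shields centromeric cohesin, by 1.25. The checkpoint kinases *ttk* and *bub1* fell by 1.22 and 1.04, and the checkpoint adaptor *bub3* by 1.17.

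*pttg1* (ENSDARG00000075421), securin, the inhibitor of separase, had 33.1, 28.5 and 44.7 CPM on day 14 and 31.6, 48.9, 75.2 and 77.4 CPM on day 8. Its groups overlapped, because day 8 replicate 1 lay below day 14 replicates 1 and 4. The log2 difference was -0.72 ± 0.29 (edgeR adjusted p = 0.0929). It was called lower with the replicate as a block (log2 difference -0.51, edgeR adjusted p = 0.0351), by DESeq2 (adjusted p = 0.0414), without scaling (edgeR adjusted p = 0.0335) and without day 8 replicate 1 (edgeR adjusted p = 0.00640). Over the other alternatives its adjusted p reached up to 0.261.

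All 5 cytokinesis genes fell, between -1.42 and -1.15. *kif23* (ENSDARG00000014943), the motor of centralspindlin, had 45.5, 33.7 and 46.4 CPM on day 14, against 93.2, 121, 119 and 117 CPM on day 8 (log2 difference -1.42 ± 0.17, edgeR adjusted p = 0.000208). Its partner *racgap1* fell by 1.15, and *ect2*, the activator of RhoA that centralspindlin recruits, by 1.17. The midzone motor *kif20a* fell by 1.35 and *anln*, the scaffold of the contractile ring, by 1.23. The ratio of *kif23* to *racgap1* overlapped between the days (0.976 to 1.30 on day 14 and 1.101 to 1.76 on day 8).

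Beyond the listed names, 147 other genes of mitosis were taken from a list of textbook roles. Of these, 73 were called lower, 5 higher and 69 not called, with a median log2 difference of -0.56. That is 49.7% lower and 3.40% higher, against 13.3% and 12.0% of all genes. The kinetochore and the spindle had the most calls, with 18 of 24 (75.0%) and 19 of 24 (79.2%) called lower and medians of -1.05 and -0.91. In entry 7 of 15 (46.7%) were called lower, and in the checkpoint and anaphase 9 of 23 (39.1%). In chromosome compaction and cohesion and in cytokinesis 5 of 19 (26.3%) each were called lower, nearest to the 13.3% of all genes. Of 23 transcription regulators of these genes 10 (43.5%) were called lower.

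**Figure D4:**
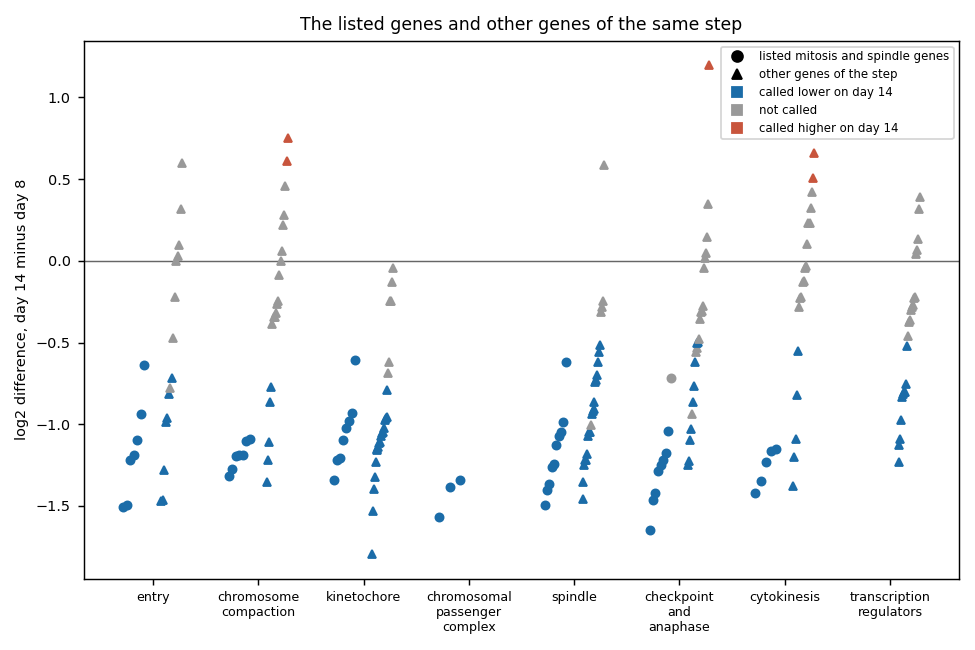
Log2 difference (day 14 minus day 8, y axis) of the 49 listed genes (circles) and of 147 other mitosis genes (triangles) by step, blue where called lower on day 14, grey where not called and red where called higher. All circles lie below 0, whereas the triangles reach up to 1.20 (*fzr1b*).

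The other genes were also sorted by complex, after their values were seen. All 3 genes specific to condensin II were called lower (*ncapg2* -1.22, *ncapd3* -0.86, *ncaph2* -0.77), as were 3 of 3 genes of the Mis12 complex, which anchors kinetochores, and 6 of 7 genes of augmin, which branches spindle microtubules. Other groups were split, with 8 of 12 CENP genes of the kinetochore called lower (log2 differences from -1.80 to -0.24), 2 of 3 genes of the Ska complex (-1.39 to -0.05), 1 of 2 further genes of the complex of *zwilch* (-1.11 to -0.13), 2 of 5 of the gamma-tubulin ring (-0.87 to -0.24) and 4 of 14 subunits of the anaphase-promoting complex (-1.09 to 0.35). The largest CENP fall was that of *cenpo*, at only 0.266 to 1.85 CPM. Its groups overlapped and its call was lost in 3 alternatives. Of the genes that act on sister chromatid cohesion, *esco2* and *cdca5*, which establish and protect it, were called lower (-1.35 and -1.11). Of 13 genes for cohesin and the proteins that load or release it 0 were called lower, as of 6 septin and 5 ESCRT genes, counts that lie near the 13.3% of all genes and show nothing particular to them.

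Ratios within a library set some of these against the listed genes, in pairs chosen after the values were seen. *top2a* relative to *top2b*, the topoisomerase II that resting cells also use, was 1.74, 1.26 and 1.39 on day 14 and 2.70, 3.35, 3.65 and 4.39 on day 8. *smc4* of condensin relative to *smc3* of cohesin was 1.16, 0.920 and 0.853 on day 14 and 1.68, 1.69, 1.94 and 1.70 on day 8. *zwilch* relative to *zw10*, its partner in the same complex, which also acts in vesicle transport, was 0.301, 0.292 and 0.270 on day 14 and 0.500, 0.492, 0.495 and 0.519 on day 8. In all 3 pairs the day 14 ratios lay below all day 8 ratios.

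The anaphase-promoting complex has 2 activators, Cdc20 in mitosis and Cdh1 in late mitosis and in cells at rest. While *cdc20* fell, the genes for Cdh1 differed from each other. *fzr1b* (ENSDARG00000022810), a gene for Cdh1, had 35.4, 48.8 and 46.7 CPM on day 14, against 15.7, 15.6, 21.1 and 23.5 CPM on day 8. It was called higher (log2 difference 1.20 ± 0.19, edgeR adjusted p = 0.000919), also in all 14 alternatives. The ratio of *cdc20* to *fzr1b* was 1.15, 0.672 and 0.854 on day 14 and 4.82, 6.33, 4.40 and 5.89 on day 8. This pair too was chosen after the values were seen and was not tested. A second gene for Cdh1, named *FZR1*, was not called (log2 difference -0.28). It had 39.8, 36.4 and 38.4 CPM on day 14 and 43.3, 50.0, 36.2 and 55.5 CPM on day 8. The direction opposite to *cdc20* was thus seen for *fzr1b* only.

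The other genes called higher were a *RAD21* gene (ENSDARG00000035655, 0.75) and a *STAG1* gene (ENSDARG00000061205, 0.61) for cohesin subunits, *chmp4ba* (0.66) of the ESCRT machinery and a *SEPTIN9* gene (ENSDARG00000020235, 0.51). Each of these lost its call without at least 1 library, *chmp4ba* without day 14 replicate 2 only. *STAG1* lost it without any 1 day 14 library or day 8 replicate 2, *SEPTIN9* also without day 8 replicate 4, and *RAD21* without day 14 replicate 1 or 2 or day 8 replicate 2, 3 or 4. Without day 14 replicate 2 their edgeR adjusted p were 0.142 (*RAD21*), 0.0645 (*STAG1*), 0.0550 (*chmp4ba*) and 0.0580 (*SEPTIN9*). Without scaling *chmp4ba* was still called higher, while the edgeR adjusted p was 0.200 for *RAD21*, 0.137 for *STAG1* and 0.189 for *SEPTIN9*. The groups of *RAD21* overlapped (7.98 CPM in day 14 replicate 4, 8.27 CPM in day 8 replicate 1). Their paralogs were not called, with log2 differences of -0.25 (*rad21a*), -0.34 (*STAG1*, ENSDARG00000062137), -0.22 (*SEPTIN9*, ENSDARG00000103900) and 0.23 (*chmp4bb*). Of these *rad21a* had 210 to 287 CPM, against 3.81 to 11.8 CPM for *RAD21*.

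Among regulators of entry, *cdc25b*, the phosphatase that activates cyclin-dependent kinase 1, fell by 0.99. *wee1*, the kinase that restrains it, had a log2 difference of -0.72 and was also called lower. *ccnf*, cyclin F, fell by 1.47. Of the 15 other entry genes 8 were not called, such as the kinase gene *pkmyt1* (log2 difference 0.03). The checkpoint genes *bub1ba* and *bub1bb* fell by 1.25 and 0.62, although *bub1bb* lost its call without day 14 replicate 1, 2 or 4 or day 8 replicate 2 or 4 (edgeR adjusted p from 0.0572 to 0.117), and *mad1l1*, which anchors Mad2 at kinetochores, fell by 0.87. The motors *kif15* and *kif22* fell by 0.92 and 0.91.

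Transcription of mitosis genes depends on FoxM1 and B-Myb together with the MuvB core. In resting cells MuvB bound to a pocket protein, mainly p130, represses these genes. *foxm1* (ENSDARG00000003200) had 9.41, 5.59 and 6.81 CPM on day 14, against 17.1, 18.1, 17.2 and 16.5 CPM on day 8 (log2 difference -1.23 ± 0.19, edgeR adjusted p = 0.000921). *MYBL2* (ENSDARG00000032264), a gene for B-Myb, and *lin54*, the DNA-binding subunit of MuvB, fell by 0.97 and 0.83. Not called were the other B-Myb gene, *mybl2a* (log2 difference -0.22), and the MuvB subunits *lin9* (-0.27) and *lin52* (-0.46), while the subunit *lin37* was called lower (-0.80). *rbl2*, for p130, had 24.3, 23.7 and 21.9 CPM on day 14 and 19.9, 20.7, 17.5 and 16.7 CPM on day 8, so that its groups did not overlap, but it was not called (log2 difference 0.32 ± 0.15, edgeR adjusted p = 0.140). The related *rbl1* was not called either (log2 difference -0.38, edgeR adjusted p = 0.112).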

How the data were processed

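RNA sequencing of 7 libraries of PAC2 cells was analysed, and samples were grouped by their labels. The authors quantified reads with Kallisto against the GRCz11 transcriptome, summed the estimates to genes and used edgeR 4.6.2 to drop barely expressed genes. The deposited values are estimated counts with unequal library totals, under a title that calls them normalized. Whether they had been adjusted for transcript length was not checked. How Kallisto divides reads among similar paralogs affects their separate values.

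The estimates were rounded to whole counts. The test was that of edgeR 4.0.16 under R 4.3.3 (TMM scaling, robust quasi-likelihood fit, growth phase as the only term, Benjamini-Hochberg adjustment over 17570 genes, threshold 0.05). Log2 differences are from this fit, with standard errors from its F statistic, and CPM used TMM-scaled library sizes. Depths of 11252559 to 33414743 counts limit precision for genes of few counts. Symbols came from a gene name table that covers 85.8% of the genes. Named were all listed genes found, plus set paralogs, complex partners and regulators, and any other mitosis gene called higher. *zw10*, *smc3*, *top2b*, *FZR1*, *esco2*, *cdca5*, *pkmyt1*, *mybl2a*, *lin9*, *lin37* and *lin52* were named after their values were seen. The gene lists were chosen with earlier results of these data known. Coordinates and sequences were not used here.

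The treatment protocol in the labels states that replicates differ in passage and in the day the experiment began, so equal numbers pair the samples. Deviations from the mean of each day correlated by 0.324, -0.132 and 0.407 in replicates 1, 2 and 4. Only day 14 replicate 4 correlated most with its own number. Day 14 replicate 1 reached 0.371 with day 8 replicate 2, and day 14 replicate 2 reached 0.180 with day 8 replicate 3. Alternatives were other scalings, DESeq2 1.42.0, limma 3.58.1 on log2(CPM + 1), the newer edgeR form, a filter of 10 counts in 3 libraries, a replicate block and the omission of each library. Plots were made in matplotlib 3.10.9 under Python 3.11.15.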

Additional observations from a re-analysis of the deposited data

Results flagged for a closer look

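One value of a listed gene stood far from the rest of its group. *kif23* had 93.2 CPM in day 8 replicate 1, while the other 3 exponential libraries held 117 to 121 CPM, and the gap took 0.859 of the whole range. Among 49 genes examined in 4 libraries, chance alone marks about 1 in 20. All 3 stationary libraries were below this value.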

How the results depend on the processing

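Over 14 alternatives, 45 of the 49 genes were called lower in each, but the share of all genes with that pattern was not counted. The count of listed genes called lower ranged from 45 (without day 14 replicate 2 or 4) to 49 (DESeq2, no scaling, the replicate block, without day 8 replicate 1), and 0 were called higher in any. The median log2 difference ranged from -1.41 (without day 14 replicate 1) to -1.11 (without day 14 replicate 4). Without scaling the median of all genes was -0.17, 3258 genes were called lower and 1218 higher, against 2344 and 2101 with scaling, and the listed genes had a median of -1.38, or -1.21 relative to all genes. Over all genes, 2544 were called lower and 2137 higher without day 8 replicate 1. Fewer were called without day 14 replicate 2 (1437 lower and 1282 higher) or day 14 replicate 4 (1361 and 1286). The cause was not tested. With the replicate as a block (paired), 49 listed genes were called lower with a median of -1.28, and apart from *pttg1* no call among them changed, while over all genes the block called 3322 lower and 3109 higher. Low counts limit *ccnb2* and *kif18a* most. The planned search of promoter motifs was not run.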
